A study of Mus musculus with 2 samples.

Results

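Levels and co-detection of 10 transcription factors of limb connective tissue were measured in single cells of mouse limb muscle. The 10 genes are Osr1, Osr2, Prrx1, Prrx2, Twist1, Twist2, Tcf7l2, Meox1, Meox2 and Tcf21. They were chosen by symbol from the 32285 genes of the count matrices. No measured value is in the rule, but the choice was made with earlier results of these data known. Cells came from limb skeletal muscles of WT C57Bl/6 embryos of age E12.5 or E15.5 (E for embryonic day), with forelimbs and hindlimbs together and dissociation by mechanical means and trypsin. Each age is 1 library of 10x 3' single-cell RNA sequencing, and the labels do not say how many embryos were pooled. An age therefore cannot be told apart from its library, no test between ages was possible, and every interval given here is a 95% interval that covers counting error only.

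Muscle connective tissue is the fibroblast network that surrounds and patterns developing muscle, and it comes, like tendon and cartilage of the limb, from lateral plate mesoderm. Osr1 and Osr2 are odd-skipped zinc finger factors, and Osr1 marks embryonic connective tissue progenitors of muscle. Prrx1 and Prrx2 are paired-related homeobox factors, and Prrx1 is the classical marker of limb bud mesenchyme. Twist1 and Twist2 are basic helix-loop-helix (bHLH) factors that pair with E proteins, and Twist2 is known from dermis. Tcf7l2, also called TCF4 as a protein, is a TCF/LEF factor that binds beta-catenin in Wnt signalling and marks muscle connective tissue fibroblasts. It is not the gene Tcf4, which encodes an E protein. Meox1 and Meox2 are homeobox factors of somites and limb, and Tcf21 is a bHLH factor of visceral mesenchyme.

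All 10 identifiers were found in the GENCODE vM21 annotation of the mouse assembly GRCm38, where each is a protein-coding gene. Osr1 lies at chr12:9570116-9581500 and Osr2 at chr15:35296098-35303305, both on the plus strand. Prrx1 spans chr1:163245119-163313710 on the minus strand and Prrx2 spans chr2:30834972-30881251 on the plus strand. Twist1 (chr12:33957671-33959829) and Twist2 (chr1:91801461-91848028) are on the plus strand, as are Tcf7l2 (chr19:55741820-55933654) and Meox2 (chr12:37108540-37179534). Meox1 (chr11:101877510-101894374) and Tcf21 (chr10:22817281-22820174) are on the minus strand. A gene annotated on the opposite strand overlaps Osr1 (1700022H16Rik), Prrx1 (Gm20471), Twist2 (Gm29100), Meox1 (Gm11551) and Tcf21 (Gm10824). Genes on the same strand overlap Prrx1 (Gm26523 and Gm37644), Twist2 (Gm29101), Meox2 (Gm48617) and Tcf7l2 (Ppnr). How the counting treated strand and overlaps is not given in the sources used here, so reads of these partners cannot be told apart from those of the gene. Osr2, Prrx2 and Twist1 have no such overlap.

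The promoters of 4 members are printed because the results below turn on them: Prrx1 fell most between the libraries in connective tissue, Twist1 and Twist2 shared the cluster of their highest level at E15.5, and Meox2 was highest in tenocyte-like cells. They are RefSeq sequences (GRCm38.p6), read 5′ to 3′ on the gene's strand. For Twist1, Twist2 and Meox2 they end just before the RefSeq start. For Prrx1 only 190 bases of its window of 250 are printed, those before the GENCODE gene, and the bases next to the RefSeq start are left out. The printed bases are chr1:163313711-163313900 for Prrx1, chr12:33957421-33957670 for Twist1, chr1:91801211-91801460 for Twist2 and chr12:37108290-37108539 for Meox2. Capitals mark matches on either strand to the E-box CANNTG that bHLH factors bind, the homeodomain core TAATTA, and the TCF/LEF core CTTTGA with its reverse complement TCAAAG.
Prrx1: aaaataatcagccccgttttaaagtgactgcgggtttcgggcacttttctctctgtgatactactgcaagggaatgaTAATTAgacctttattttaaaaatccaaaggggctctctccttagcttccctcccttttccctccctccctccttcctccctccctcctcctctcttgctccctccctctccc
Twist1: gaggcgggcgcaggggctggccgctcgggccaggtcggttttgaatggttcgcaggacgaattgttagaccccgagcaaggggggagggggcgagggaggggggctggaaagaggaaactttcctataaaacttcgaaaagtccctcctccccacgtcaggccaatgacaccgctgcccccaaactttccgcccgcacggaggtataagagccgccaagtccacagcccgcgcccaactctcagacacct
Twist2: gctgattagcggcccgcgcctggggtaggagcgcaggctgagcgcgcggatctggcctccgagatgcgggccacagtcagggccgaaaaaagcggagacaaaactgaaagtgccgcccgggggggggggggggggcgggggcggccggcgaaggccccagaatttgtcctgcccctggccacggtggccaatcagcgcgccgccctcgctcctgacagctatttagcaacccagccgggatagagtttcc
Meox2: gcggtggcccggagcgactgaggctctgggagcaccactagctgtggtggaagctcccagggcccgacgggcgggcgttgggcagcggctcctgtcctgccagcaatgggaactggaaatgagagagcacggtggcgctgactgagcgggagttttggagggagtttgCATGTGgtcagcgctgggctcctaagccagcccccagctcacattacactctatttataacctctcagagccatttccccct

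Windows of 250 bases were searched for 7 members, with 2 windows for Tcf7l2, and none was matched for Osr1, Osr2 or Meox1. The Prrx1 window held 1 TAATTA, which starts 173 bases before the RefSeq start. Among all 32851 windows of this length, 4.84% held that motif. The Meox2 window held 1 E-box, starting 82 bases before the start, against 66.2% of all windows with at least 1. The windows of Twist1, Twist2, Prrx2 and Tcf7l2 held no match to any of the 3 motifs. Tcf21 had 1 TCF/LEF core, which 13.8% of all windows held. A match is a run of letters and not evidence of binding.

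The libraries held 12941 and 5780 cell barcodes, with 34907675 and 46966083 UMIs in all; a UMI (unique molecular identifier) marks 1 captured RNA molecule. After filtering, 11001 cells remained at E12.5 (median 2323 UMIs) and 3916 at E15.5 (median 9325.5 UMIs), and 17 barcode sequences occurred in both libraries. Clusters were named from fixed markers as "X-like", leaving the 10 genes out of the clustering. Connective tissue-like was the name for clusters with connective tissue markers that no other class had claimed. Connective tissue-like cells were 7678 of the 11001 cells (69.8%) at E12.5, against 1617 of 3916 (41.3%) at E15.5. Tenocyte-like cells numbered 234 and 146, and chondrocyte-like cells 1108 and 535. Mural-like cells (69) were named only at E15.5, with all 10 mural markers detected, as they also were in connective tissue-like and chondrocyte-like cells. The background classes were endothelial-like (131 and 152 cells) and immune-like (17 and 84 cells). Levels are given as CPM, the UMIs of a gene for every 1000000 UMIs, after summing over the cells of a class. Tendon markers (Scx, Tnmd, Mkx, Thbs4, Fmod and Kera) summed to 814 CPM in tenocyte-like cells at E12.5 (3381 in the later library), against 164 and 188 in connective tissue-like cells. Mural markers summed to 3270.0 CPM in mural-like cells, against 224 in connective tissue-like and 202 in chondrocyte-like cells of E15.5. Unnamed clusters held 1157 and 620 cells.

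In connective tissue-like cells, 9 of the 10 genes were detected at 27.6 CPM or more at both ages, and Tcf21 was nearly absent. CPM values are used to compare classes and libraries for 1 gene, not different genes. A gene was called above background where its CPM was at least 2-fold that of both endothelial-like and immune-like cells, among genes of at least 10 CPM. At E12.5 all 9 tested genes met this rule in connective tissue-like cells, where 15.4% of all tested genes did. The counts were 9 of 9 in tenocyte-like cells (18.0% of all genes) and 6 of 6 in chondrocyte-like cells (14.4% of all genes), where Osr1, Meox1 and Meox2 were under 10 CPM. The 17 immune-like cells of E12.5 held 0 UMIs of Osr2, Prrx2, Twist2, Meox1 and Meox2, which allows up to 42.9 CPM, so for these genes the calls rest on endothelial-like cells. Levels under that limit could not be separated from immune-like cells at this depth. They were Osr2, Prrx2 and Twist2 in chondrocyte-like, Twist2 in tenocyte-like and Meox1 in connective tissue-like cells. The interval for 0 UMIs ran further, up to 52.7 CPM. It also covered Prrx2 (48.3 CPM) and Twist2 (43.5 CPM) in connective tissue-like cells. In tenocyte-like cells it covered Osr2 (50.1 CPM) and Prrx2 (46.4 CPM). Twist1 in tenocyte-like and chondrocyte-like cells (76.1 and 37.6 CPM) and Osr1 in tenocyte-like cells (29.7 CPM) could not be separated either. The 1 immune-like UMI of each of these genes gave 14.3 CPM with an interval of 0.362 to 79.6. At E15.5 the counts were 7 of 9 in connective tissue-like cells (15.4% of all genes), 5 of 7 in tenocyte-like cells (13.3%), 7 of 9 in chondrocyte-like cells (15.7%) and 6 of 8 in mural-like cells (11.7%). The genes that missed the rule at E15.5 were Meox1 and Meox2 in connective tissue-like and chondrocyte-like cells, Tcf7l2 and Meox1 in tenocyte-like cells, and Tcf7l2 and Meox2 in mural-like cells. These 3 genes were themselves measured in endothelial-like or immune-like cells, as described below.

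**Figure D1:**
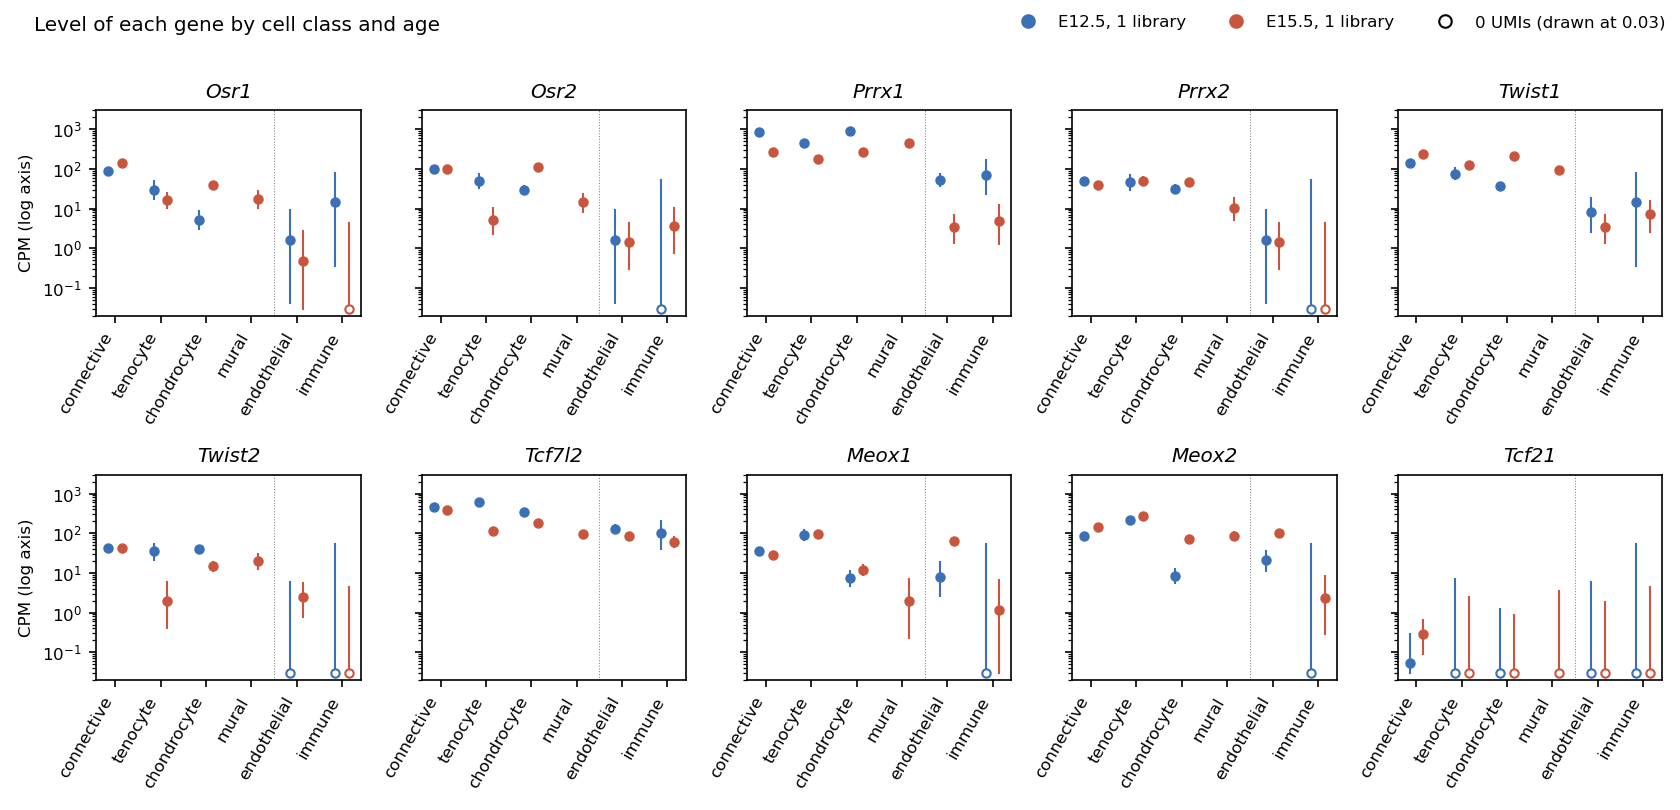
Level of each of the 10 genes in 6 classes of cells, in CPM on a log axis, with 1 point per library and bars for the 95% counting interval; open points are classes with 0 UMIs, and the dotted line separates the background classes. Osr1, Osr2, Prrx1, Prrx2, Twist1 and Twist2 stood lower in endothelial-like and immune-like cells than in connective tissue-like cells. For Prrx2 and Twist2 at E12.5, the immune-like interval, up to 52.7 CPM, covered the connective tissue-like level. Meox1, Meox2 and Tcf7l2 had endothelial-like levels of 62.0, 103 and 84.4 CPM at E15.5, against 27.6, 147 and 388 CPM in connective tissue-like cells.

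Among lineages that should lack these genes, mast-like cells gave a low floor and erythroid-like cells a higher one. Mast-like cells at E15.5 (68 cells, median 17801 UMIs) held at most 3.45 CPM of any of the 10 genes, that highest value being Tcf7l2. Among endothelial-like cells of the same library (median 10392 UMIs), Tcf7l2 had 173 UMIs and Prrx1 had 7, whereas connective tissue-like cells held 6802 and 4554. Endothelial-like Prrx1 was higher at E12.5, with 33 UMIs and 53.5 CPM, against 875 CPM in connective tissue-like cells. Immune-like cells at E12.5 rest on 17 cells and 69976 UMIs, so that a gene with 0 UMIs there could still reach 42.9 CPM. The 18 erythroid-like cells of E15.5 held 102 CPM of Tcf7l2, 95.2 of Twist1, 73.2 of Prrx1, 47.6 of Meox2 and 32.9 of Osr1. Their other members were at or under 18.3 CPM. At E12.5 the 43 such cells held 141 CPM of Prrx1, 134 of Tcf7l2, 39.3 of Osr2 and 31.4 of Meox2. The rest were at or under 15.7 CPM. Several levels called above background were no higher than the erythroid-like ones. At E15.5 they were mural-like Twist1 (92.0 CPM), Osr1 (17.2 CPM) and Prrx2 (10.5 against 18.3 CPM), and tenocyte-like Osr1 (16.4 CPM). At E12.5 chondrocyte-like Osr2 (29.7 CPM) was no higher. Intervals overlapped for other called levels, among them mural-like Osr2 (14.4 CPM) and Twist2 (20.1 CPM), each inside an erythroid-like interval of 2.26 to 32.1 CPM. Connective tissue markers summed to 809 and 5969 CPM in erythroid-like cells, and their part was not tested.

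Between the libraries, Prrx1 was the only 1 of the 9 tested genes to differ by 2-fold or more in connective tissue-like cells, and it was lower at E15.5. None was higher by that rule, where 8.62% of 9719 genes were, and 1 of 9 was lower, where 20.0% of genes were. The median log2 ratio of E15.5 over E12.5 was -0.08 for the 9 genes and -0.35 for all genes tested, so that a gene with a ratio near 0 stood above the median gene. In tenocyte-like cells 4 of 9 were lower (29.0% of genes) and none was higher (8.52%), with a median of -0.86 against -0.50 for all genes. In chondrocyte-like cells 4 of 9 were higher (8.64% of genes) and 2 were lower (13.5%), with a median of 0.70 against -0.25. Connective tissue markers (13 of 13 detected at each age) summed to 1571 CPM in chondrocyte-like cells at E12.5, against 10372 CPM at E15.5, and chondrocyte markers (14 of 14) to 14715 CPM, against 5321 CPM. Their part in these ratios was not tested. The chondrocyte-like values rest on which clusters carried the name. At E15.5 the class held a cluster of 219 cells led by Gdf5, a ligand of joint-forming cells, whereas at E12.5 the 1356 cells of Gdf5-led clusters were in the connective tissue-like class.

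**Figure D2:**
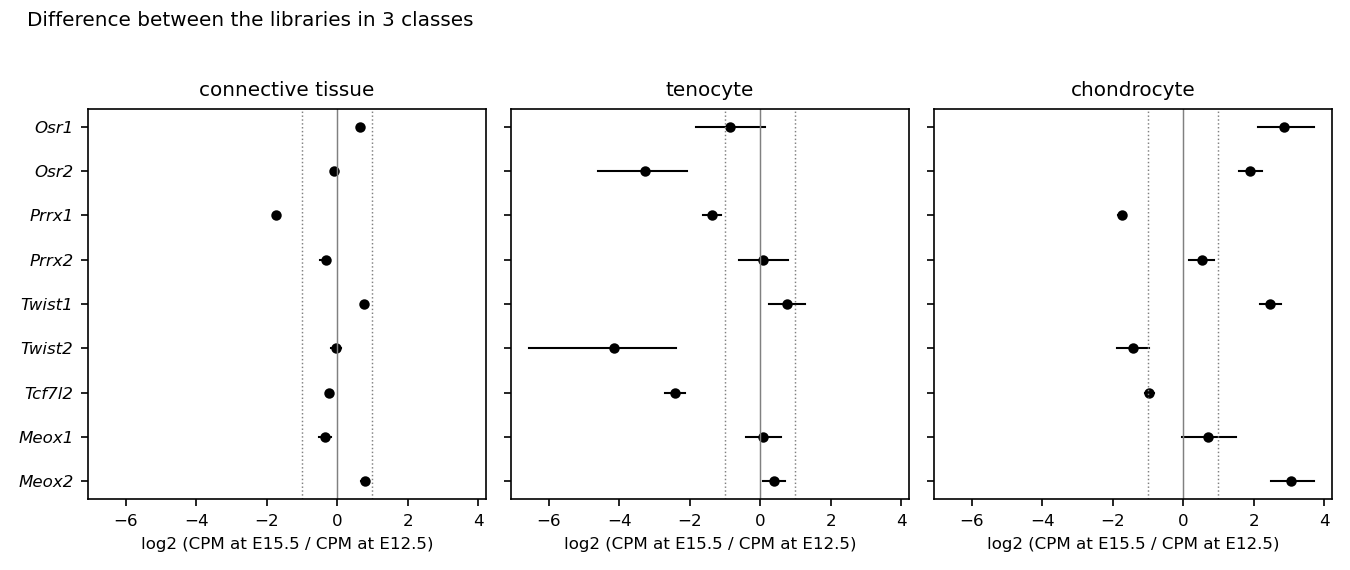
Log2 ratio of CPM at E15.5 over CPM at E12.5 for 9 genes in 3 classes, with 95% counting intervals; the solid line marks equal levels and the dotted lines the 2-fold rule. Prrx1 lay beyond the dotted line on the lower side in all 3 classes (-1.75, -1.37 and -1.74), and Osr2 and Twist2 lay far to the lower side in tenocyte-like cells (-3.26 and -4.16).

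The counts in connective tissue-like cells depended on scaling and on the cells included. Scaled to the median gene, 4 genes passed the 2-fold rule: Prrx1 lower (-1.40), and Osr1 (1.01), Twist1 (1.11) and Meox2 (1.13) higher. Among female cells Meox2 passed beside Prrx1 (1.05), and with unnamed clusters joined to the class Twist1 did (1.24). Markers of cartilage moved with these values. All 14 chondrocyte markers were detected in the class at both ages, and their sum was 2639.8 CPM at E12.5, against 119 CPM at E15.5. Connective tissue markers summed to 4795 and 19532 CPM. The part of this shift in the ratios was not tested, other than by setting the Gdf5-led clusters aside: Prrx1 was then -1.90, Osr1 0.56, Twist1 0.59, Meox2 0.57 and Osr2 0.58.

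Osr1 was highest in connective tissue-like cells at both ages. It measured 87.1 CPM (interval 83.0 to 91.4) at E12.5, against 138 CPM (132 to 143) at E15.5 (log2 ratio 0.66, interval 0.57 to 0.75). After each cell was thinned to 2000 UMIs, 13.6% of 4759 and 22.5% of 1616 connective tissue-like cells held an Osr1 UMI. Of the E12.5 cells, 2919 were shallower and were left out. Without thinning the shares were 15.2% and 64.8%. The ratio was -0.01 among male cells and 0.96 among female cells, sorted by Xist and Y-linked UMIs, and -0.01 where classes were set by marker gates on each cell in place of clusters.

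Outside connective tissue, Osr1 was lower in each class. Tenocyte-like cells held 29.7 CPM at E12.5, against 16.4 CPM at E15.5, from 16 and 25 UMIs, with overlapping intervals. Mural-like cells held 17.2 CPM at E15.5, inside the interval of the tenocyte-like level. Chondrocyte-like cells held 5.28 CPM at E12.5, against 38.2 CPM at E15.5, with a log2 ratio of 2.86 that turned to -0.66 with both libraries clustered together. Endothelial-like cells had 1 Osr1 UMI at each age (1.62 and 0.488 CPM), and immune-like cells had 1 UMI at E12.5, against 0 at E15.5, which allows up to 3.57 CPM.

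Osr1 varied widely among the clusters of connective tissue-like cells at E12.5. Over 21 clusters it ran from 6.57 CPM, in cells led by Gria2 and Isl1, through a median of 59.4 CPM, to 368 CPM in 168 cells led by Grem1, a BMP antagonist, Alx1 and Kera. Clusters led by Apcdd1 and Pappa2 (243 CPM) and by Calb2 and Arhgap20 (224 CPM) followed. At E15.5 the 9 clusters lay between 91.2 and 204 CPM, the highest being 60 cells led by Ly6a, Igfbp6, Dpt and Cd55. The spread between clusters was therefore narrower in the later library, with fewer clusters.

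Osr2 had nearly the same level in connective tissue-like cells of both libraries, at 102 CPM (97.6 to 107) and 96.6 CPM (92.1 to 101), with a log2 ratio of -0.08 (interval -0.17 to 0.02). Over 12 alternatives the ratio lay between -0.33, with equal weight per cell, and 0.72, with both libraries clustered together. It was 0.58 with Gdf5-led clusters set aside, which were in this class only at E12.5. Osr2 differed between the clusters. At E12.5 the highest level was 406 CPM, in 643 cells led by Gdf5, Scrg1 and Barx1, and 212 cells led by Barx1, Pax9 and Gdf5 held 313 CPM. Not all Gdf5-led cells were as high. The 501 cells led by Gm26771, Sfrp2 and Gdf5 held 156 CPM, near the 142 CPM of cells led by Dcn and Sall1. The median of the 21 clusters was 68.5 CPM, and 54 cells led by Gria2 and Isl1 had no Osr2 UMI. In the 178 chondrocyte-like cells led by Epyc and Matn1, Osr2 was 125 CPM, against 7.17 to 21.0 CPM in the other 3 chondrocyte-like clusters.

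At E15.5 the Gdf5-led cells were again the highest in Osr2, with 201 CPM in the 219 chondrocyte-like cells led by Gdf5, Dkk3 and Scrg1. The connective tissue-like clusters lay between 36.2 and 173 CPM, with the top in 51 cells led by Spink6, Anxa8 and Pi16. In chondrocyte-like cells as a class Osr2 was 29.7 CPM at E12.5, against 110.4 CPM at E15.5 (log2 ratio 1.89, interval 1.57 to 2.24). That ratio was 1.06 with Gdf5-led clusters set aside, -0.17 in clusters with at least 4 chondrocyte markers among their leading genes, -0.58 with marker gates and -3.14 with both libraries clustered together, so no direction is given for it.

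In tenocyte-like cells Osr2 was lower at E15.5. It had 27 UMIs at E12.5 (50.1 CPM, 33.0 to 72.9) and 8 at E15.5 (5.25 CPM, 2.26 to 10.3), with a log2 ratio of -3.26 (interval -4.60 to -2.08). The ratio stayed below -1 under all 9 alternatives that gave a value, between -4.28 and -1.13. The E15.5 level was inside the interval of immune-like cells (3.57 CPM from 3 UMIs), so Osr2 was not separable there from the background. Erythroid markers summed to 195 CPM in tenocyte-like cells at E12.5, against 5477 CPM at E15.5, with 7 of 10 detected at each age. Chondrocyte markers (13 of 14 detected at each age) summed to 3056 CPM at E12.5, against 419.6 CPM at E15.5. Connective tissue markers (13 of 13) summed to 6134 CPM, against 20302 CPM. The part of these shifts in the tendon ratios was not tested. At E12.5 the class held 23 cells with marker gates and 612 among cells with at least 1000 genes.

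Prrx1 was lower at E15.5 in connective tissue-like, tenocyte-like and chondrocyte-like cells. In connective tissue-like cells it measured 875 CPM (861 to 888) at E12.5, against 259 CPM (252 to 267) at E15.5 (log2 ratio -1.75, interval -1.80 to -1.71). The thinned share of cells with a Prrx1 UMI was 68.1% at E12.5, against 34.0% at E15.5. Tenocyte-like cells went from 455 to 176 CPM (-1.37, -1.62 to -1.11) and chondrocyte-like cells from 913 to 274 CPM (-1.74, -1.84 to -1.64). Over the 12 alternatives in connective tissue-like cells the ratio ran from -1.99 to -1.40, and over those in chondrocyte-like cells from -3.63 to -1.01. The tenocyte-like ratio was -0.87 scaled to the median gene and -0.90 with 4000 variable genes, short of the 2-fold rule, and -2.26 with marker gates.

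The mural-like cells of E15.5 held more Prrx1 than the connective tissue-like cells of the same library. Their 465 UMIs gave 446 CPM (406 to 488) against 259 CPM (252 to 267). The thinned share of cells with a Prrx1 UMI was 47.8% (35.6 to 60.2) of 69 mural-like cells against 34.0%, with overlapping intervals. The connective tissue-like cluster led by Aldh1a2 and Cxcl13 was higher still, at 556 CPM, so mural-like cells were within the range of single clusters. Mural-like cells are smooth muscle and pericyte cells of vessel walls, and endothelial-like cells of that library had 3.42 CPM of Prrx1.

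At E12.5 the clusters with the most Prrx1 were not those with the most Osr2. Prrx1 was highest in 340 connective tissue-like cells led by Alcam, Ifitm1 and Rspo3 (1636 CPM) and in chondrocyte-like cells led by Runx3 and Cytl1 (1496 CPM). It was 269 CPM in the Gdf5-led cells with the highest Osr2 level and 142 CPM in the Epyc-led chondrocyte-like cells. Thinned E12.5 connective tissue-like cells with both UMIs were 7.29% (6.57 to 8.07), under the product of the single shares, 9.59%, and under the product taken within clusters, 8.23%. At E15.5 the shared cells were 5.32% against a product of 5.11%, inside the interval (4.28 to 6.53).

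Prrx2 differed by less than 2-fold between the libraries in all 3 mesenchymal classes as named here, but not under every alternative. Its chondrocyte-like ratio of 0.52 ran from -1.47 with marker gates to 2.07 among male cells. The tenocyte-like ratio of 0.08 ran from -0.45 with joint clustering to 1.14 with marker gates. It was 48.3 CPM in connective tissue-like, 46.4 in tenocyte-like and 32.0 in chondrocyte-like cells at E12.5, where the first 2 had overlapping intervals. At E15.5 the values were 38.3, 49.2 and 45.7 CPM, and mural-like cells held 10.5 CPM (5.26 to 18.9). The log2 ratio in connective tissue-like cells was -0.33 (-0.48 to -0.19), close to the shift of the median gene, and 0.02 when scaled to it. In endothelial-like cells Prrx2 had 1 and 3 UMIs, and none in immune-like cells. Its highest level was 169.6 CPM in an unnamed cluster at E15.5 that also led in Twist1 and Twist2.

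Twist1 was higher at E15.5 in connective tissue-like cells, though by less than 2-fold. It measured 139 CPM (134 to 145) at E12.5, against 236 CPM (229 to 243) at E15.5 (log2 ratio 0.76, interval 0.69 to 0.83), and was found in 21.5% and 31.7% of thinned cells. The ratio was between 0.29 and 1.24 over 12 alternatives, and it passed the 2-fold rule when unnamed clusters were joined to the class (1.24) or when scaled to the median gene. Tenocyte-like cells held 76.1 and 128 CPM, a ratio of 0.75 (0.26 to 1.27) that was 0.05 among male cells. Chondrocyte-like cells held 37.6 and 208 CPM, a ratio of 2.47 (2.19 to 2.77) that turned to -0.80 with both libraries clustered together. Mural-like cells held 92.0 CPM. Endothelial-like cells had 8.11 and 3.42 CPM, and immune-like cells 14.3 CPM from 1 UMI and 7.14 CPM from 6.

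Twist2 had nearly the same level in connective tissue-like cells of both libraries, 43.5 CPM (40.6 to 46.6) and 42.7 CPM (39.7 to 45.8), with a log2 ratio of -0.03 (interval -0.17 to 0.12). Alternatives moved it between -0.76 and 0.65. In tenocyte-like cells it had 19 UMIs at E12.5 (35.3 CPM, 21.2 to 55.0) and 3 at E15.5 (1.97 CPM, 0.406 to 5.75), a ratio of -4.16 with an interval from -6.56 to -2.40. It stayed between -5.28 and -3.65 over 9 alternatives. The E15.5 level was no higher than that of endothelial-like cells (2.44 CPM). In chondrocyte-like cells it measured 39.2 and 14.6 CPM, a ratio of -1.42 (-1.89 to -0.97). Mural-like cells held 20.1 CPM.

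The 2 Twist genes were high together in some clusters and apart in others. At E12.5, among connective tissue-like clusters, 239 cells led by Apcdd1, Pappa2 and Hoxc5 had the highest Twist1 (429.9 CPM) and the highest Twist2 (119 CPM), and the lowest Tcf7l2 (128 CPM). An unnamed cluster of 224 cells led by Nlrp12 and Thsd4 had still more Twist2, 153 CPM, with 38.6 CPM of Twist1. At E15.5 an unnamed cluster of 81 cells held 1129 CPM of Twist1 and 534 CPM of Twist2, with 67.9 CPM of Tcf7l2. Its leading genes were Stmn2, Irx1, Apcdd1, Col7a1 and Wnt4, besides Twist2 itself, and Twist2 was not used to form the cluster. Within the connective tissue-like class of that library, cells led by Pappa2 and Ch25h had the highest Twist1 level, 759.9 CPM, with 146 CPM of Twist2. The Ly6a-led cells had the highest Twist2 level of the class, 169 CPM. Twist1 was also 697 CPM in an unnamed cluster of 201 cells led by Hbb-y, where Twist2 was 20.2 CPM. Unnamed clusters held 40.1% of the Twist2 UMIs and 33.1% of the Twist1 UMIs of the E15.5 library, against 16.1% and 6.38% at E12.5. They held 15.8% of all cells at E15.5, against 10.5% at E12.5, and were not the same clusters in the 2 libraries.

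**Figure D3:**
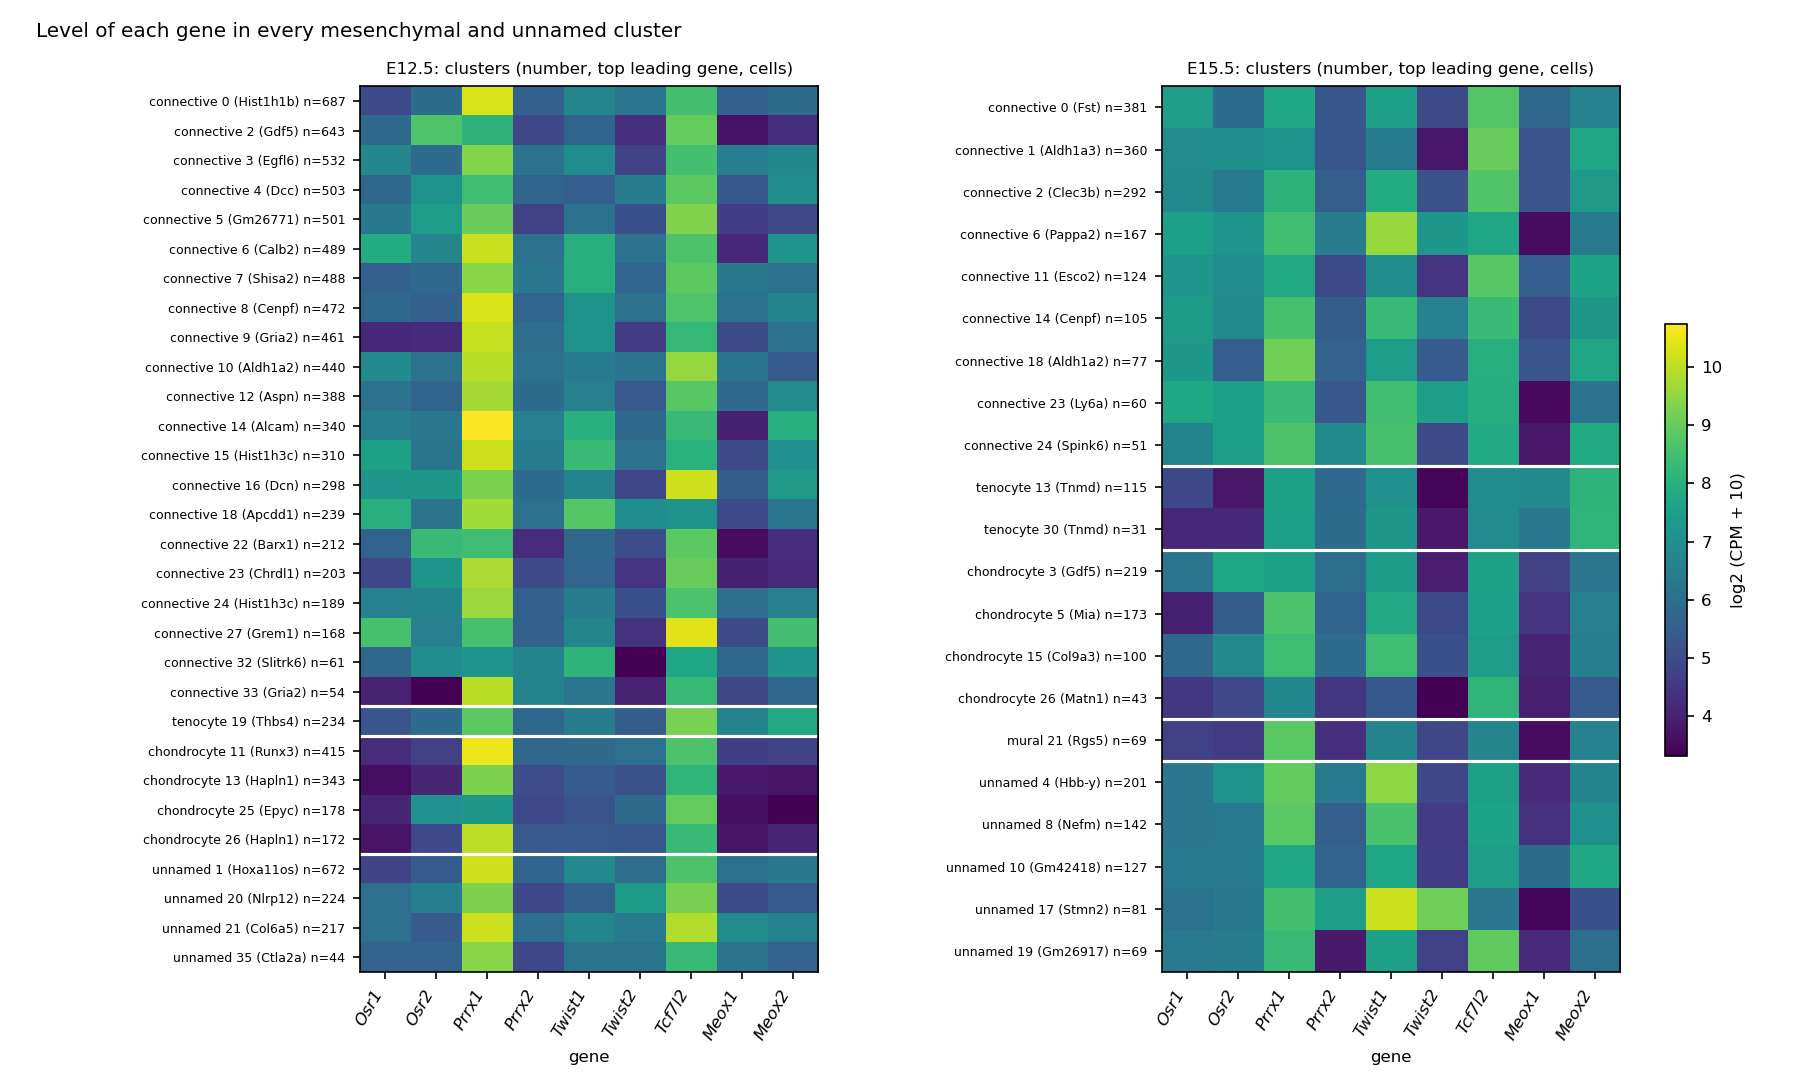
Level of 9 genes in every connective tissue-like, tenocyte-like, chondrocyte-like, mural-like and unnamed cluster of both libraries, as log2 (CPM + 10), with clusters in rows, labelled by class, number, top leading gene and cells. The row labelled Gdf5 at E12.5 stands out in Osr2 (406 CPM), the Grem1-led row in Tcf7l2 (1341 CPM), and the Stmn2-led row in Twist1 (1129 CPM) and Twist2 (534 CPM).

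Tcf7l2 was detected in connective tissue-like cells and, at lower levels, in endothelial-like and immune-like cells. Connective tissue-like cells held 455 CPM (445 to 464) at E12.5, against 388 CPM (378 to 397) at E15.5 (log2 ratio -0.23, interval -0.28 to -0.18). The thinned shares were 47.6% and 49.3%. They did not follow the CPM, so no order is read from them, and scaled to the median gene the ratio was 0.12. Tenocyte-like cells stood above connective tissue-like cells at E12.5, with 597 CPM (534 to 666), and below them at E15.5, with 111 CPM (95.3 to 129.5). Their ratio was -2.42 (-2.70 to -2.15) and stayed between -3.46 and -1.92 over 10 alternatives. Chondrocyte-like cells held 353 and 181 CPM, a ratio of -0.96 (-1.10 to -0.83).

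Tcf7l2 in endothelial-like, immune-like and mural-like cells was above the mast-like floor but could not be separated from the erythroid-like one. Erythroid-like cells held 134 CPM (77.8 to 214) at E12.5, against 102 CPM (68.1 to 148) at E15.5, and the intervals overlapped. Endothelial-like cells held 129.7 CPM (103 to 161) at E12.5, against 84.4 CPM (72.3 to 98.0) at E15.5. Immune-like cells had 7 Tcf7l2 UMIs in the earlier library (interval 40.2 to 206 CPM) and 52 in the later one (46.2 to 81.1 CPM). Mural-like cells, with 93.9 CPM (76.2 to 114), overlapped the endothelial-like interval. Within connective tissue the spread was wide at E12.5, from 128 CPM to 1341 CPM in the Grem1-led cells, and 298 cells led by Dcn and Sall1 held 1160.4 CPM. At E15.5 it ran from 198 CPM in the Pappa2-led cells to 510.4 CPM in 360 cells led by Aldh1a3 and Ngfr. An unnamed cluster of 69 cells at E15.5 held 472 CPM and had Ppnr, the gene that overlaps Tcf7l2 on the same strand, among its leading genes.

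Meox2 was higher at E15.5 in connective tissue-like cells and was highest in tenocyte-like cells at both ages. Connective tissue-like cells held 85.4 CPM (81.3 to 89.7) and 147 CPM (141 to 152), with a log2 ratio of 0.78 (interval 0.69 to 0.87), and the thinned shares were 13.0% and 21.3%. Tenocyte-like cells held 209.7 CPM (173 to 252) and 276 CPM (250.3 to 304), with thinned shares of 30.7% and 41.0%. Their ratio of 0.40 (0.09 to 0.71) was -0.12 among male cells. In chondrocyte-like cells 26 UMIs gave 8.57 CPM at E12.5, against 72.2 CPM from 306 UMIs at E15.5, a ratio of 3.07 (2.49 to 3.71). That ratio kept its direction under 12 alternatives, between 0.52 and 4.22, and was under 2-fold with marker gates (0.52) and joint clustering (0.54). Endothelial-like cells held 21.1 CPM at E12.5, against 103 CPM (90.0 to 118) at E15.5, above the mural-like level of 87.2 CPM (70.2 to 107) but with overlapping intervals.

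Meox1 was also highest in tenocyte-like cells, with 89.1 CPM (65.7 to 118) at E12.5, against 94.4 CPM (79.6 to 111) at E15.5. Connective tissue-like cells held 34.9 and 27.6 CPM, a ratio of -0.34 (-0.51 to -0.17), and 0.01 when scaled to the median gene. Chondrocyte-like cells held 7.25 and 11.8 CPM, with overlapping intervals. In endothelial-like cells Meox1 was 8.11 CPM from 5 UMIs at E12.5, against 62.0 CPM (51.7 to 73.8) from 127 UMIs at E15.5. Mural-like cells had 2 UMIs, 1.92 CPM. Immune-like cells had 1 Meox1 UMI and 2 Meox2 UMIs at E15.5.

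Among connective tissue-like clusters the 2 Meox genes did not share their peak. At E12.5 Meox2 was highest in the Grem1-led cells (357 CPM) with 22.5 CPM of Meox1, and 241 CPM in the Alcam-led cells with 6.12 CPM of Meox1. Meox1 was highest in 532 cells led by Egfl6 and C1qtnf3, at 81.3 CPM, and 112 CPM in an unnamed cluster led by Col6a5 and Itih5. In the Gdf5-led cells with the highest Osr2 level, Meox1 was 2.97 CPM and Meox2 9.65 CPM. Both tenocyte-like clusters of E15.5 were high in both genes, with 106 and 69.2 CPM of Meox1 and 275 and 279 CPM of Meox2.

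Tcf21 had 1 UMI in the whole E12.5 library and 5 at E15.5, all in connective tissue-like cells. That is 0.0527 CPM (0.00134 to 0.294) and 0.285 CPM (0.0925 to 0.665), under the 10 CPM minimum, so no ratio was tested. The 5 UMIs were in 3 cells. No class other than connective tissue had a Tcf21 UMI, which for chondrocyte-like cells at E15.5 allows up to 0.707 CPM.

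Most connective tissue-like cells held UMIs of more than 1 of these genes. After thinning to 2000 UMIs, 93.7% of connective tissue-like cells at E12.5 held at least 1 of the 10, 66.7% at least 2 and 29.9% at least 3. At E15.5 the shares were 91.0%, 61.9% and 28.6%. Tenocyte-like cells with at least 1 were 94.2% at E12.5, against 75.0% at E15.5, and chondrocyte-like cells 86.0% and 79.1%. Mural-like cells were at 66.7%. The background was lower: 29.9% and 37.7% of endothelial-like, 18.8% (of only 16 cells) and 10.0% of immune-like, and 1.47% of mast-like cells. Erythroid-like cells were at 40.5% of 37 and 16.7% of 18 cells, and muscle lineage-like cells at 49.5% and 28.7%.

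**Figure D4:**
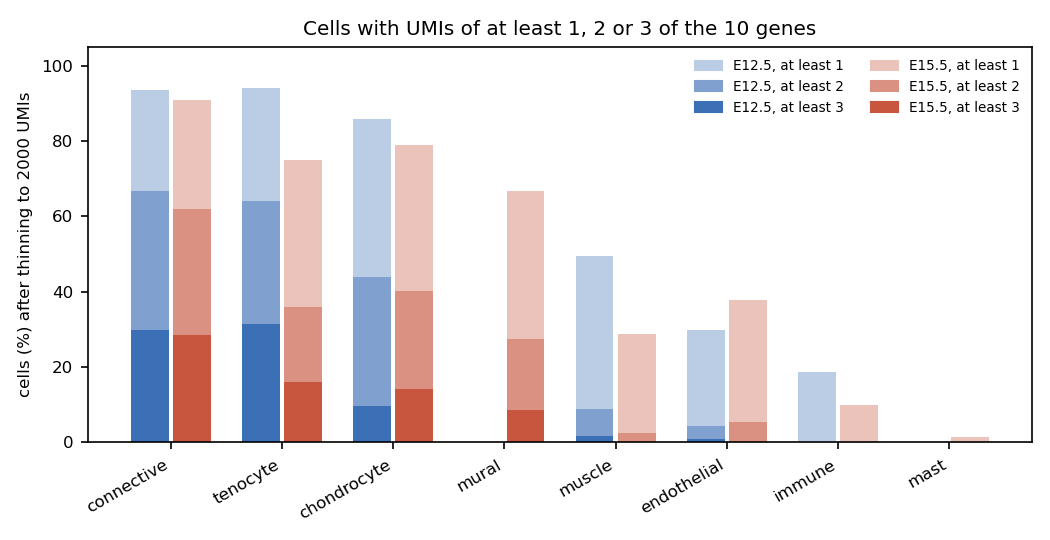
Share of cells with UMIs of at least 1, 2 or 3 of the 10 genes after thinning to 2000 UMIs, by class and library, from light to dark; bars start at 0, and mural-like and mast-like cells were named only at E15.5. Connective tissue-like cells reached 93.7% and 91.0% for at least 1 gene, and mast-like cells 1.47%.

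Across the 45 pairs of the 10 genes, co-detection in connective tissue-like cells mostly lay near the product of the 2 single shares. A pair counted as above it where the share of cells with both was at least 1.5 times the product and the interval lay above it. At E12.5 no pair of 45 met this rule, and at E15.5 2 did, Twist1 with Twist2 and Osr2 with Twist2. Twist1 and Twist2 were found together in 3.65% (2.79 to 4.68) of 1616 cells, against a product of 2.02%. Computed within clusters, the product was 3.14%, inside that interval. Osr2 and Twist2 were together in 1.79% (1.21 to 2.57) of cells against a product of 0.958%, or 1.30% within clusters. At E12.5 the Twist pair stood at 1.93% (1.56 to 2.37) against 1.71%. The count at E15.5 was 0 among male cells and after thinning to 4000 UMIs.

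Several pairs shared fewer cells than the product. Twist1 and Tcf7l2 were together in 8.19% (7.43 to 9.01) of 4759 cells at E12.5 against 10.2%, and in 12.6% (11.0 to 14.3) at E15.5 against 15.7%. Within clusters the products were 9.34% and 14.4%, outside the interval at E12.5 and just outside it at E15.5. Osr2 and Meox2 were together in 1.28% (0.982 to 1.64) at E12.5 against 1.83%. Prrx1 and Tcf7l2, the pair found together most often, shared 30.5% (29.2 to 31.9) of E12.5 cells against 32.5%. The paralogs Osr1 and Osr2 were together in 2.06% (1.67 to 2.50) of cells at E12.5 against 1.91%, and in 3.65% (2.79 to 4.68) at E15.5 against 3.39%, both inside their intervals. Among 531 chondrocyte-like cells at E15.5 they were together in 13, or 2.45% (1.31 to 4.15), against 1.17%, or 1.57% within clusters. Prrx1 and Prrx2 shared 6.96% (6.25 to 7.72) of E12.5 cells against 6.07%, and 6.42% within clusters. Osr1 and Meox2 shared 2.61% (2.17 to 3.10) against 1.77% at E12.5, and 4.27% (3.34 to 5.37) against 4.79% at E15.5.

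**Figure D5:**
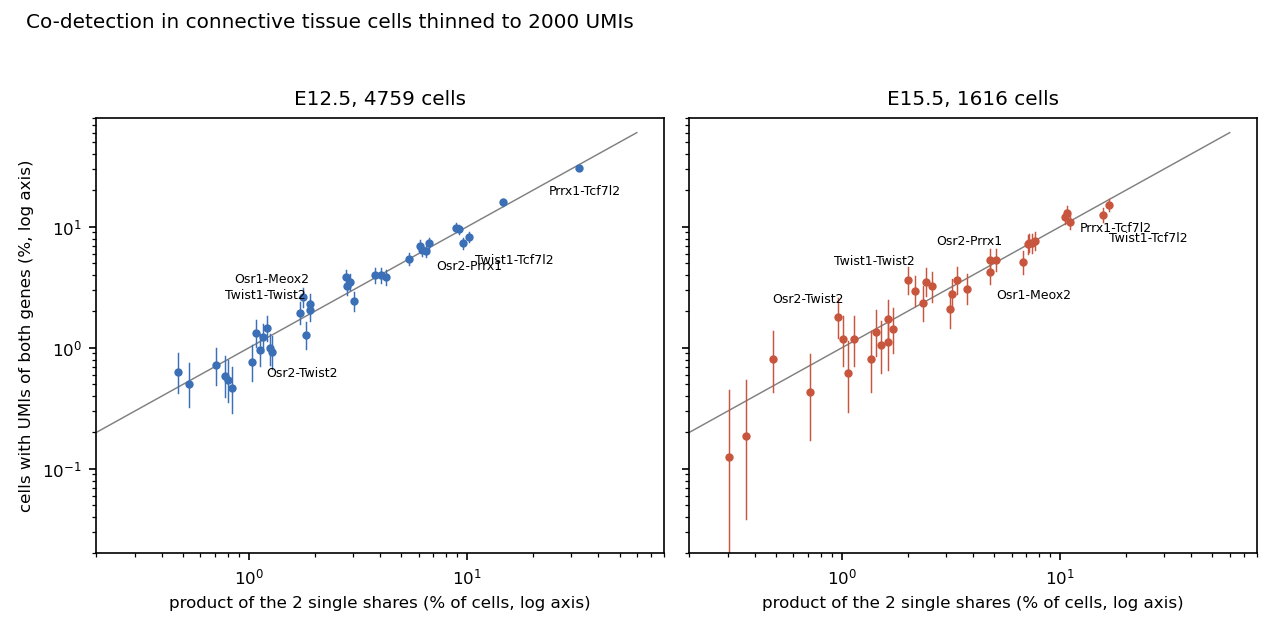
Percentage of thinned connective tissue-like cells with UMIs of both genes of a pair (vertical, log axis, 95% binomial interval) against the product of the 2 single percentages (horizontal, log axis), 1 panel per library; the line marks equal values. Points lie along the line, with Twist1-Twist2 above it at E15.5 (3.65% against 2.02%) and Twist1-Tcf7l2 below it in both libraries.

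Genes outside the 10 whose level followed each member over clusters were named by correlation of log2 (CPM + 10). It was taken over 38 clusters of the earlier library and 31 of the later one, among 6195 genes, and ranked by the lower of the 2 values. These correlations describe clusters of all cell types of 2 libraries, and the clusters share library and depth. Osr1 was followed best by Agtr2, the angiotensin II receptor type 2 (r = 0.83 and 0.85), Hic1 (0.83 and 0.86) and Col3a1 (0.82 and 0.84). For Osr2 the genes were Sulf1 (0.79 and 0.80), Gm26771 and Runx1t1. Prrx1 was followed by Wnt5a (0.85 and 0.83), Smarca1 and Ror2, and Prrx2 by Il11ra1, Mfap4 and Smarca1. Twist1 was followed by Crabp1, which binds retinoic acid (0.85 and 0.88), Cdo1 and Col1a1, and Twist2 by Igsf10 (0.72 and 0.69), Wnt5a and Shox2. Tcf7l2 was followed by Adgrl3 (0.73 and 0.70) and Cask, Meox1 by Rflnb, Amot and Usp46 (0.62 and 0.65 for Rflnb), and Meox2 by Ebf3, Hic1 and Smarca2 (0.80 and 0.76 for Ebf3). The rule did not apply to Tcf21.

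Among the members themselves, Prrx2 and Twist1 had the closest cluster patterns at E12.5 (r = 0.86 over 38 clusters), and Prrx1 and Twist1 at E15.5 (r = 0.91 over 31 clusters). Prrx1 and Prrx2 stood at 0.79 in both libraries. Twist1 and Tcf7l2 stood at 0.15 and 0.41. These values include clusters outside connective tissue, in which most members were low.

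Related factors from 3 lists were measured in the same cells. Of 7 bHLH partners and Id inhibitors, the dimer partners of Twist proteins and the proteins that block them, none was 2-fold higher in connective tissue-like cells at E15.5 and 2 were lower, where 8.62% and 20.0% of all tested genes were. The 2 were Id1, from 352 to 93.3 CPM (-1.92), and Id2, from 157 to 63.9 CPM (-1.30). The list's median was -0.70 against -0.35 for all genes. The E proteins Tcf4 (1229 to 782 CPM, -0.65) and Tcf3 (97.5 to 65.7 CPM, -0.57) did not pass, nor did Id3 (-0.83) and Id4 (-0.10).

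Of 18 TCF/LEF relatives, cofactors and Wnt target genes, 14 were tested in connective tissue-like cells, with 1 higher (8.62% of all genes) and 6 lower (20.0% of all genes). Lef1, a TCF/LEF relative of Tcf7l2, went from 47.2 to 0.570 CPM, from 895 UMIs to 10 (-6.37, -7.44 to -5.49). The corepressors Tle4 (159 to 39.6 CPM) and Tle3 (87.9 to 22.1 CPM, -1.99) were lower, as were Tle1, Bcl9 and Axin2. Tle5 was the 1 gene higher, from 163 to 328 CPM (1.01). Bcl9l (-0.19) and Nkd1 (0.07) stayed under 2-fold. Lef1 was lower at E15.5 in the class where Tcf7l2 was 455 and 388 CPM.

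Of 13 other mesenchymal transcription factors, 3 were higher and 5 lower in connective tissue-like cells, against the same shares of all genes. Zeb2 (59.3 to 159.8 CPM, 1.43), Ebf2 (56.7 to 149.7 CPM, 1.40) and Ebf1 (243 to 521 CPM, 1.10) were higher. Foxc1, which is expressed in cartilage-forming mesenchyme, went from 79.4 to 3.13 CPM (-4.66), and Foxc2 from 293 UMIs to 14 (-4.28). Tbx18 went from 179.9 to 56.7 CPM (-1.67), and Shox2 and Alx4 were lower too. The median of the list was -0.63. Foxc1 was among the 10 leading genes of the Gdf5-led chondrocyte-like cluster of E15.5, and the part of those cells in its ratio was not tested. In tenocyte-like cells the 3 lists had 0, 1 and 1 genes higher and 4, 8 and 5 lower, of 7, 13 and 11 tested, where 8.52% of all genes were higher and 29.0% lower. In chondrocyte-like cells they had 0, 1 and 3 higher and 2, 4 and 4 lower, of 7, 13 and 11 tested, where 8.64% of all genes were higher and 13.5% lower.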

How the data were processed

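Droplet 3' RNA sequencing (10x Chromium 3' v3.1, per the labels' protocols) was made of limb skeletal muscle cells at E12.5 and E15.5, with 1 library at each age. The authors deposited raw UMI counts of 32285 genes per barcode, made with Cell Ranger 4.0.0, per the file headers. The submitters' processing notes also name Seurat 4.3.0 and the build mm10. Their roles, and any removal of doublets before deposit, are not given in the sources used here.

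From these counts, barcodes with at least 500 genes and under 10% mitochondrial UMIs were kept. Doublets were scored against simulated pairs, and the top scores were removed at 0.8% per 1000 barcodes, which took 1270 barcodes at E12.5 (10.3%) and 190 at E15.5 (4.63%). Each library was clustered alone with leidenalg 0.10.2 (resolution 2.0, 2000 variable genes, 30 components, 15 neighbours, seed 0). The 10 members, 38 related genes, 25 proliferation genes, Xist and 4 Y-linked genes were left out of the clustering. A cluster was named from 14 fixed marker classes where at least 3 markers of a class were enriched 2-fold over the other clusters. At least 1 marker also had to be among its 10 leading genes. Connective tissue was given last, only to clusters that no other class had claimed and that were not led by more markers of another class. For it, 3 markers had to be 2-fold above clusters of the muscle lineage, mural, endothelial, blood cell, Schwann, epithelial and melanocyte classes. This naming rule, and the exclusion of a platelet cluster, were set after the clusters had been seen. Members and lists were chosen with earlier results of these data known.

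Levels are CPM over the summed UMIs of a class with exact Poisson intervals, ratios have exact conditional intervals, and shares have exact Clopper-Pearson intervals. A difference was called at 2-fold among genes of at least 10 CPM in 1 of the libraries, with no p-value, since each age is 1 library. A class with 0 UMIs could hold up to 3 counts. For shares, cells were thinned to 2000 UMIs. Named related genes were the 3 highest and 3 lowest ratios of each list. Genes with a like pattern were the 3 best among genes that reached 50 CPM in a cluster of both libraries, over clusters of at least 30 cells. The scripts were tested on simulated data. The identifiers matched GENCODE vM21 for 32235 of 32285 genes. Alternatives changed the clustering, filters, naming, sex of the cells, scaling, weights and thinning. A gene that these rules name is not reported here.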

Additional observations from a re-analysis of the deposited data

Results flagged for a closer look

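The age ratio of 2 genes pointed one way in one class and the other way in another, and neither difference was tested, since each age is 1 library. Osr2 had a log2 ratio of 1.89 in chondrocyte-like cells and -3.26 in tenocyte-like cells, and both intervals excluded 0. Prrx2 had a log2 ratio of 0.52 in chondrocyte-like cells and -0.33 in connective tissue-like cells. In both genes the chondrocyte-like ratio changed sign under other ways of forming that class, and the Prrx2 ratio in connective tissue-like cells was 0.02 when scaled to the median gene.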

How the results depend on the processing

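Of 74 alternatives to the counts, 63 stayed within 1.5 times the reported count, and of 303 alternatives to single ratios 14 reversed a ratio whose interval excluded 0. The number of genes past 2-fold in connective tissue-like cells, 1 as reported, was 2 in female cells, 2 with unnamed clusters joined to the class and 4 when scaled to the median gene. In chondrocyte-like cells the number fell from 6 to 3 with both libraries clustered together. Pairs above the product of their shares at E12.5 went from 0 to 1 with joint clustering, 2 in male cells and 2 with thinning to 1000 UMIs. At E15.5 the 2 pairs became 1 with 4000 variable genes, 1 with joint clustering, 0 in male cells and 0 with thinning to 4000 UMIs. Reversed ratios in connective tissue-like cells were Osr1 at -0.01 with marker gates and -0.01 in male cells, and, scaled to the median gene, Prrx2 at 0.02, Tcf7l2 at 0.12 and Meox1 at 0.01. In chondrocyte-like cells joint clustering gave Osr1 -0.66, Osr2 -3.14, Prrx2 -0.81 and Twist1 -0.80, from 2961 cells at E12.5 and only 42 at E15.5. Marker gates gave Osr2 -0.58 and Prrx2 -1.47 there, clusters with at least 4 markers gave Osr2 -0.17, and keeping doublets gave Prrx2 -0.02. Meox2 in tenocyte-like cells was -0.12 in male cells. The cause was not tested for any of these. Setting Gdf5-led clusters aside, requiring at least 4 chondrocyte markers and using immune-like cells alone as background were chosen after seeing the data. With 0 UMIs in a library, no ratio was given for Osr2 (male) and Twist2 (marker gates) in tenocyte-like cells, nor for Twist2 in chondrocyte-like cells clustered jointly. By sex, the background count at E12.5 gave no value, since male and female immune-like cells were 4 and 7. No paired analysis was possible because each age has 1 library. Depth limits the E12.5 shares, since 2919 connective tissue-like cells under 2000 UMIs were left out of thinning, against 1 at E15.5.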

Other observations

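Muscle lineage-like cells (601 in the earlier and 489 in the later library) held far less of these genes than connective tissue-like cells, apart from Tcf7l2. Tcf7l2 was 264 CPM (244 to 285) at E12.5, against 128 CPM (119 to 137) at E15.5 in muscle lineage-like cells. Prrx1 was 76.1 CPM and 13.1 CPM there, and Osr2 was 9.66 CPM and 14.0 CPM with overlapping intervals. The other members were at or under 17.7 CPM at both ages. Connective tissue markers summed to 804 and 1202 CPM in these cells, and their part in these levels was not tested.

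Schwann-like cells at E15.5 (83 cells) held 121 CPM of Tcf7l2 (99.5 to 145) and 29.4 CPM of Prrx1 (19.5 to 42.4). Prrx1 was 75.4 CPM in 1 of their 2 clusters (33 cells) and 1.68 CPM in the other (50 cells), and after thinning to 2000 UMIs 0 of the 83 cells held a Prrx1 UMI. Their connective tissue markers summed to 6639.5 CPM, with Mfap4 at 0. The other members had at most 5 UMIs in these cells. The interval of Tcf7l2 lay above that of endothelial-like cells, 72.3 to 98.0 CPM, and overlapped that of erythroid-like cells, 68.1 to 148 CPM.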
